A study of Mus musculus with 9 samples.

Results

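Mitochondrial ribosomal protein genes, the nuclear genes for the protein parts of the ribosome inside mitochondria, were followed in mouse ovaries. They were taken by symbol from the authors' deposited table, as every gene named Mrpl or Mrps with a number and at most 1 further letter. This gave 78 of the 19517 genes listed, and all 78 had values in each of the 3 comparisons. The 9 libraries were made from ovaries of females of the athymic BALB/c nude strain, and every group carried xenografts of the human breast cancer line MDA-MB-231. The CTX group (3 libraries) received cyclophosphamide, an alkylating chemotherapy drug, the CAU group (3 libraries) is labelled with caulerpin, an algal indole alkaloid, and the UT group (3 libraries) had no treatment. The labels give no age, dose or time and do not say whether the CAU mice also received cyclophosphamide. Libraries are numbered, with no animal named, and the spread behind each p-value may therefore be technical.

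The mitochondrial ribosome translates the few mRNAs of mitochondrial DNA, all of which encode membrane subunits of the respiratory chain and ATP synthase. Its ribosomal RNAs are transcribed inside the organelle, while all of its proteins are encoded in the nucleus, made in the cytosol and imported. Some of these proteins have counterparts in bacterial ribosomes, and the others are found in mitochondria alone. Growing oocytes and steroid-making cells hold many mitochondria, and in humans inherited variants in several mitochondrial translation genes are linked to ovarian insufficiency.

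The values were the log2 fold changes, p-values and DESeq2 adjusted p of the authors' deposited table, which compares groups and holds no value per library. Sequencing depth is unknown here. The standard error (SE) beside a log2 fold change was worked back from its p-value, and intervals are 95% normal intervals from that SE. Each column was read as the second group named over the first, a direction the header does not state, and with the opposite reading every sign would turn. With the reading used, Cdkn1a, the p53-induced inhibitor of cell cycle kinases, had a log2 fold change of 1.99 (SE 0.32) for CTX against UT by the authors' deposited table.

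No mitochondrial ribosomal protein gene passed the test in any of the 3 comparisons, and their differences between groups were small. By the DESeq2 adjusted p of the authors' deposited table (threshold 0.05), 0 of 78 were called in CTX against UT, where 1.29% of all genes were called. The count was 0 of 78 in CAU against CTX, against 0.442% of all genes, and 0 of 78 in CAU against UT, against 0.0518% of all genes. These counts lie near the background shares, and the intervals below say more than the counts. At an unadjusted p under 0.05, the numbers were 1, 0 and 0 of 78 in the authors' deposited table, where 10.2%, 5.36% and 3.46% of all genes lay.

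Between CTX and UT the members ranged from 0.896-fold to 1.19-fold, between CAU and CTX from 0.919-fold to 1.13-fold, and between CAU and UT from 0.934-fold to 1.26-fold. The median size of a log2 difference was 0.06 in CTX against UT, beside 0.18 over all genes. It was 0.05 in CAU against CTX and 0.05 in CAU against UT, beside 0.13 and 0.14 over all genes. The members were also measured more precisely than most genes, with a median SE of 0.12, 0.11 and 0.14 in these comparisons, beside 0.21, 0.18 and 0.24 over all genes.

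These errors set what could have been seen. The interval lay wholly within a 1.5-fold change in either direction for 77 of 78 members in CTX against UT, for 78 of 78 in CAU against CTX and for 76 of 78 in CAU against UT. Within a 2-fold change it lay for all 78 in each comparison. Over all genes, 48.2%, 54.1% and 46.3% of intervals lay within 1.5-fold and 61.8%, 65.6% and 62.0% within 2-fold. The widest member interval reached 1.65-fold, for Mrps12 in CAU against UT. A member of median precision would have been called at a change of 1.34-fold in CTX against UT, 1.34-fold in CAU against CTX and 1.54-fold in CAU against UT. Across members this limit ran from 1.23-fold to 1.59-fold, from 1.20-fold to 1.59-fold and from 1.36-fold to 1.92-fold in these comparisons. Each limit was taken from the largest DESeq2 p called in its comparison (0.000612, 0.000215 and 1.44e-05). The limits would move with the number of genes called.

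**Figure D1:**
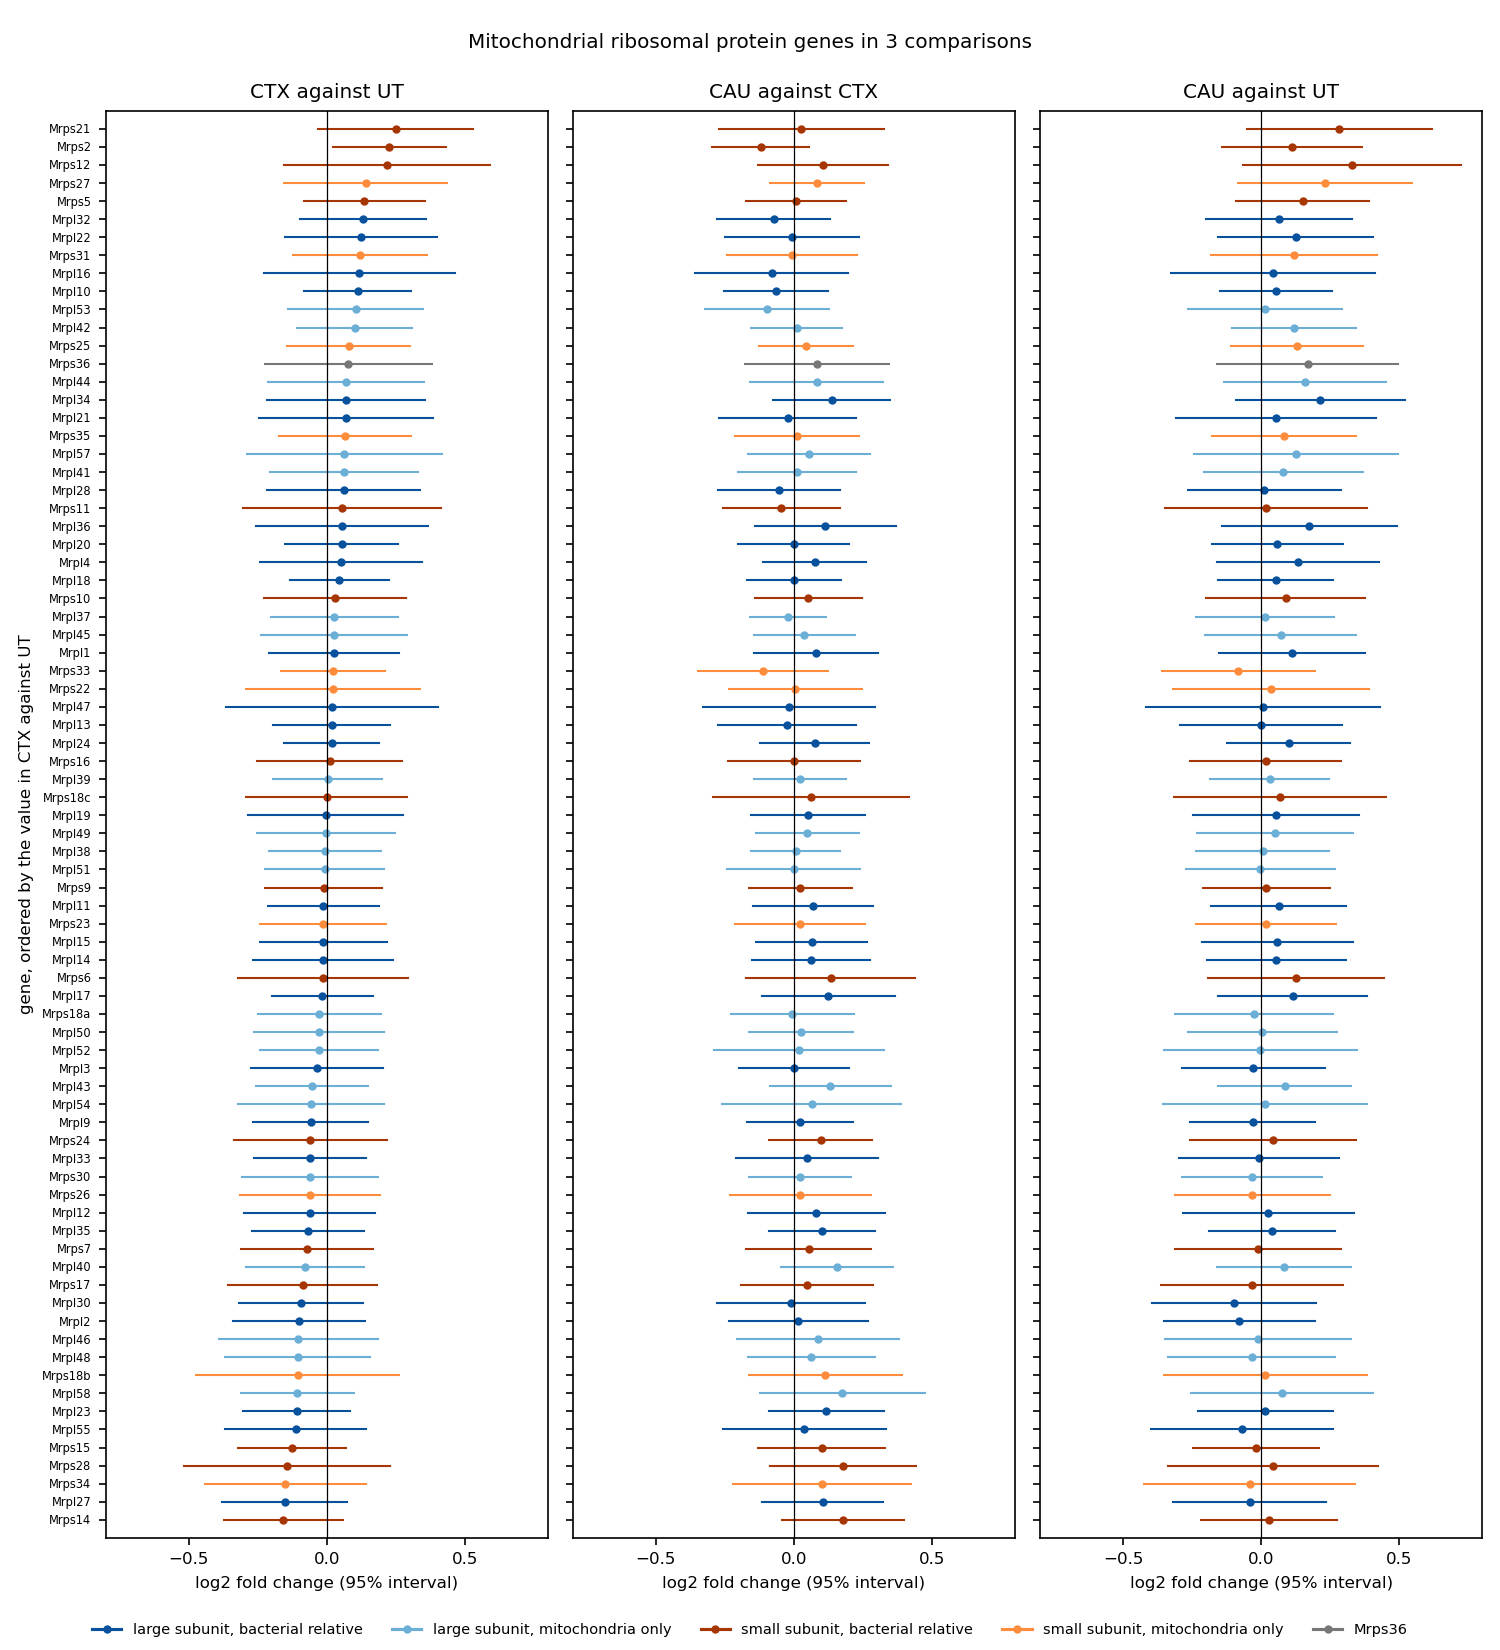
Log2 fold change (point) and 95% interval (line) of each of the 78 genes in CTX against UT, CAU against CTX and CAU against UT. Colours give the subunit and whether the protein was listed with a counterpart in bacterial ribosomes. All intervals hold 0 except that of Mrps2 in CTX against UT.

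**Figure D2:**
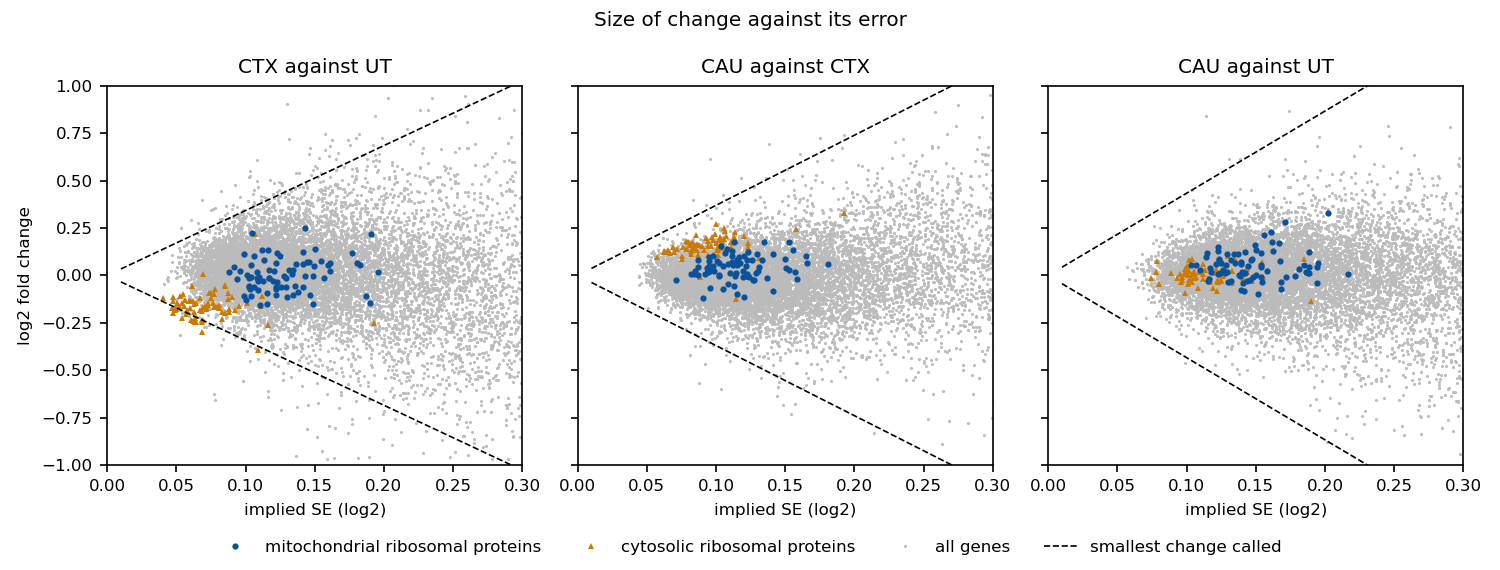
Log2 fold change against its implied SE for mitochondrial ribosomal proteins, cytosolic ribosomal proteins and all genes in the 3 comparisons, with points beyond the axes not drawn. The dashed lines mark the smallest change called at each SE, and all 78 mitochondrial ribosomal protein genes lie between these lines.

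By direction, the members were evenly split between CTX and UT, with 37 positive and 41 negative values and a median log2 fold change of -0.0038, beside -0.03 over all genes. After centring all genes on a median of 0, the members' own median became 0.02 and 49 were positive, so their direction in this comparison depended on the centring. Between CAU and CTX, 59 of 78 were positive with a median of 0.04, where 52.3% of all genes were positive with a median of 0.0040. Between CAU and UT, 58 of 78 were positive with a median of 0.04, where 47.8% of all genes were positive with a median of -0.0087. Both of these comparisons use the same 3 CAU libraries, and genes within a library are not independent, so no test was made of these counts. The z values (log2 fold change over SE) of the members had an SD of 0.70, 0.56 and 0.51 in the 3 comparisons, beside 1.21, 0.99 and 0.86 over all genes.

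The large subunit joins amino acids into protein, and 51 of the 78 genes encode parts of it. Of these, 30 have bacterial counterparts, with a median log2 fold change of 0.0068 in CTX against UT, 0.04 in CAU against CTX and 0.05 in CAU against UT. The other 21, found only in mitochondrial ribosomes, had medians of -0.0084, 0.02 and 0.01. None of the 51 had an unadjusted p under 0.05 in the authors' deposited table.

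Mrpl12, a protein of the stalk that recruits translation factors and a binding partner of the mitochondrial RNA polymerase, was put by the authors' deposited table at log2 fold changes of -0.06 (SE 0.12) in CTX against UT, 0.08 (SE 0.13) in CAU against CTX and 0.03 (SE 0.16) in CAU against UT. Mrpl58, a hydrolase that frees peptides from stalled ribosomes, had -0.11 (SE 0.10), 0.17 (SE 0.15) and 0.08 (SE 0.17) in the same comparisons of the authors' deposited table. Mrpl44, which has the fold of a double-strand RNase, lay there at 0.07 (SE 0.14), 0.08 (SE 0.12) and 0.16 (SE 0.15). For none of these 3 genes did an interval leave out 0.

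Mrps30, which in spite of its small-subunit name sits in the large subunit, was given by the authors' deposited table as -0.06 (SE 0.13) in CTX against UT, 0.02 (SE 0.09) in CAU against CTX and -0.03 (SE 0.13) in CAU against UT. Among the members with an SE at or under the members' median, Mrpl27, a relative of a bacterial protein near the peptide-joining centre, was among the 3 lowest in CTX against UT, where the authors' deposited table gives -0.15 (SE 0.12) and an adjusted p of 0.803. Mrpl32, a large-subunit protein with a bacterial relative, was among the 3 highest there at 0.13 (SE 0.12) and among the 3 lowest in CAU against CTX at -0.07 (SE 0.10), by the authors' deposited table. The highest of these precise members in CAU against CTX included Mrpl40 at 0.15 (SE 0.10) and Mrpl34 at 0.14 (SE 0.11), and the lowest included Mrpl10, of the stalk base, at -0.06 (SE 0.10). In CAU against UT, Mrpl22, which lines the exit tunnel, was among the highest at 0.12 (SE 0.14), and Mrpl2 and Mrpl27 were among the lowest at -0.08 (SE 0.14) and -0.04 (SE 0.14), all by the authors' deposited table. None passed the threshold, and these extremes lie at the ends of a spread narrower than the implied errors. Mrpl47, at the tunnel exit, was the least precise member in CTX against UT and in CAU against UT, at 0.02 (SE 0.20) and 0.0078 (SE 0.22).

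The small subunit reads the mRNA, and 26 of the genes encode parts of it. The 16 with bacterial counterparts had a median log2 fold change of -0.0064 in CTX against UT, 0.05 in CAU against CTX and 0.04 in CAU against UT. The 10 listed without such counterparts had medians of 0.02, 0.02 and 0.03. The remaining gene, Mrps36, carries a ribosomal protein name but encodes a part of the 2-oxoglutarate dehydrogenase complex, and the authors' deposited table lists it at 0.08 (SE 0.15), 0.08 (SE 0.13) and 0.17 (SE 0.17).

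The 3 highest values in CTX against UT all belonged to small-subunit proteins with bacterial counterparts, an observation made after the values were seen. By the authors' deposited table Mrps21 was at 0.25 (SE 0.14, adjusted p = 0.596), Mrps2 at 0.23 (SE 0.10, adjusted p = 0.408) and Mrps12, which lies at the decoding site, at 0.22 (SE 0.19, adjusted p = 0.875). Mrps2 was the only member with an unadjusted p under 0.05 in any comparison, with p = 0.0301 by the authors' deposited table. Its fold in CTX against UT was 1.17, with an interval from 0.02 to 0.43 on the log2 scale. Mrps2 had the lowest value of the 78 in CAU against CTX, where the authors' deposited table gives -0.12 (SE 0.09) and an adjusted p of 1.00, and it stood at 0.11 (SE 0.13) in CAU against UT. The first and second of these comparisons share the CTX libraries, so the opposite signs are not separate observations.

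Mrps12 and Mrps21 also had the 2 highest values in CAU against UT, 0.33 (SE 0.20) and 0.28 (SE 0.17), and for both the authors' deposited table has an adjusted p of 1.00. Their values in CAU against CTX were 0.10 (SE 0.12) and 0.03 (SE 0.15). Mrps14, a small-subunit protein with a bacterial counterpart, was by the authors' deposited table the lowest member in CTX against UT at -0.16 (SE 0.11) and, after Mrps28, the next highest in CAU against CTX at 0.18 (SE 0.11). Mrps15 had -0.13 (SE 0.10) in CTX against UT, and Mrps5, which stood among the highest precise members in CTX against UT and in CAU against UT, had 0.14 (SE 0.11) and 0.15 (SE 0.12). The comparisons against UT share the UT libraries, and CTX against UT and CAU against CTX share the CTX libraries. The places of Mrps12, Mrps21, Mrps14 and Mrps5 in several comparisons are therefore not separate observations. Of the small-subunit proteins found only in mitochondria, Mrps25 was at 0.13 (SE 0.12) and Mrps33 at -0.08 (SE 0.14) in CAU against UT. Mrps34, needed for a stable small subunit, is listed in the authors' deposited table at -0.15 (SE 0.15) in CTX against UT, 0.10 (SE 0.16) in CAU against CTX and -0.04 (SE 0.19) in CAU against UT. Mrps18b, one of a family of related proteins of which Mrps18a sits in the large subunit, was at -0.11 (SE 0.19), 0.11 (SE 0.14) and 0.02 (SE 0.19). Mrps18c of the same family was the least precise member in CAU against CTX, at 0.06 (SE 0.18).

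Of the genes linked in humans to ovarian insufficiency, the members Mrps22, Mrps7 and Mrpl50 stood close to 0 in all 3 comparisons. The authors' deposited table has Mrps22 at 0.02 (SE 0.16) in CTX against UT, 0.0054 (SE 0.12) in CAU against CTX and 0.03 (SE 0.18) in CAU against UT. Mrps7 was at -0.07 (SE 0.12), 0.05 (SE 0.12) and -0.01 (SE 0.15), and Mrpl50 at -0.03 (SE 0.12), 0.02 (SE 0.10) and 0.0047 (SE 0.14). The list also held the mitochondrial tRNA synthetase genes Hars2, Lars2 and Aars2, the rRNA chaperone gene Eral1 and the protease gene Clpp. The helicase gene Twnk, the translation gene Rmnd1 and the DNA polymerase gene Polg completed it. Of its 11 genes 0 were called in each comparison, near the shares of 1.29%, 0.442% and 0.0518% over all genes. The precisest of the list in CTX against UT was Hars2, at 0.0088 (SE 0.10), and the largest value there was that of Twnk, which the authors' deposited table has at 0.20 (SE 0.14) with an adjusted p of 0.748. Twnk overlaps the member Mrpl43 on the opposite strand, and no source used here gives the strand setting of the counting.

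Genes for proteins that assemble and drive the mitochondrial ribosome gave no called gene either. Over all genes 1.29%, 0.442% and 0.0518% were called in CTX against UT, CAU against CTX and CAU against UT. Counts of 0 in lists this small lie near those shares. The 5 further proteins of the ribosome itself that carry other names (Dap3, Ptcd3, Chchd1, Aurkaip1 and Gadd45gip1) had median log2 fold changes of 0.04 in CTX against UT, 0.02 in CAU against CTX and 0.06 in CAU against UT, with 0 called. Of 23 assembly factors, 0 passed in each comparison, with medians of 0.04, 0.03 and 0.07. Of 16 translation and mRNA-handling factors, 0 passed, with medians of 0.06, 0.05 and 0.13, and 14, 11 and 14 of them were positive. Of 17 mitochondrial tRNA synthetases, 0 passed, with medians of 0.05, -0.0053 and 0.08, and 14, 6 and 14 of them were positive. Over all genes, 44.2%, 52.3% and 47.8% were positive, and no test was made of these counts.

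In each of these lists the gene with the smallest SE in CTX against UT lay near 0. The authors' deposited table has Ptcd3, of the small subunit, at 0.04 (SE 0.10), the assembly gene Ngrn at -0.04 (SE 0.10), the membrane insertase gene Oxa1l at 0.04 (SE 0.10) and the isoleucine tRNA synthetase gene Iars2 at 0.03 (SE 0.07). Picked after the values were seen, Tufm, the elongation factor that brings charged tRNAs to the ribosome, was listed in the authors' deposited table at 0.14 (SE 0.13) in CTX against UT, -0.02 (SE 0.09) in CAU against CTX and 0.12 (SE 0.14) in CAU against UT. Ears2, the glutamate tRNA synthetase gene and likewise picked late, had the highest value of its list in CTX against UT, for which the authors' deposited table gives 0.29 (SE 0.14) and an adjusted p of 0.467.

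Genes upstream of the ribosome gave no called gene, though single genes stood further from 0 than any member. With 1.29%, 0.442% and 0.0518% of all genes called in the 3 comparisons, counts of 0 in these lists lie near the background. Of 16 genes of mitochondrial DNA upkeep and transcription, 0 passed, with medians of -0.01 in CTX against UT, 0.03 in CAU against CTX and 0.04 in CAU against UT. Tfam, the main packaging factor of mitochondrial DNA, lay at 0.01 (SE 0.10) in CTX against UT by the authors' deposited table. Of 13 regulators of mitochondrial genes, such as the coactivators of the Ppargc1 family and Nrf1, 0 passed, with medians of -0.08, -0.02 and -0.08. By DESeq2, 2, 2 and 0 of them had an unadjusted p under 0.05, beside 10.2%, 5.36% and 3.46% of all genes. The lowest regulator in CTX against UT was Ppargc1a, the best known of these coactivators and picked here after its values were seen, at -1.04 (SE 0.52) with p = 0.0470 and an adjusted p of 0.484 in the authors' deposited table. It stood at 0.12 (SE 0.37) in CAU against CTX and -0.91 (SE 0.53) in CAU against UT by the authors' deposited table. Its relative Ppargc1b, likewise picked late, had -0.43 (SE 0.25), -0.07 (SE 0.20) and -0.49 (SE 0.26) in these comparisons of the authors' deposited table. Yy1, a transcription factor and the precisest regulator in CTX against UT, had 0.13 (SE 0.08) there by the authors' deposited table. In CAU against CTX it had -0.16 (SE 0.07) with a DESeq2 adjusted p of 0.754. Sirt3, another regulator and picked late, had -0.27 in CTX against UT and 0.25 in CAU against CTX. Its DESeq2 adjusted p was 0.488 and 0.908 in these comparisons, which share the CTX libraries. Of 22 import and folding genes, 0 passed in each comparison, and Tomm6, of the outer membrane translocase, was at -0.11 (SE 0.08) in CTX against UT by the authors' deposited table. Of 10 genes of mitochondrial proteases and stress response, 0 passed, with 2 at an unadjusted p under 0.05 in CTX against UT and 0 in each of the other comparisons. Among them Yme1l1, an inner membrane protease, had 0.18 (SE 0.08) with an adjusted p of 0.332 in CTX against UT by the authors' deposited table. The genes of mitochondrial DNA itself, which hold the templates of this ribosome, could not be followed. They were sought as a list of 15, and 0 had a value under the symbols searched.

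**Figure D3:**
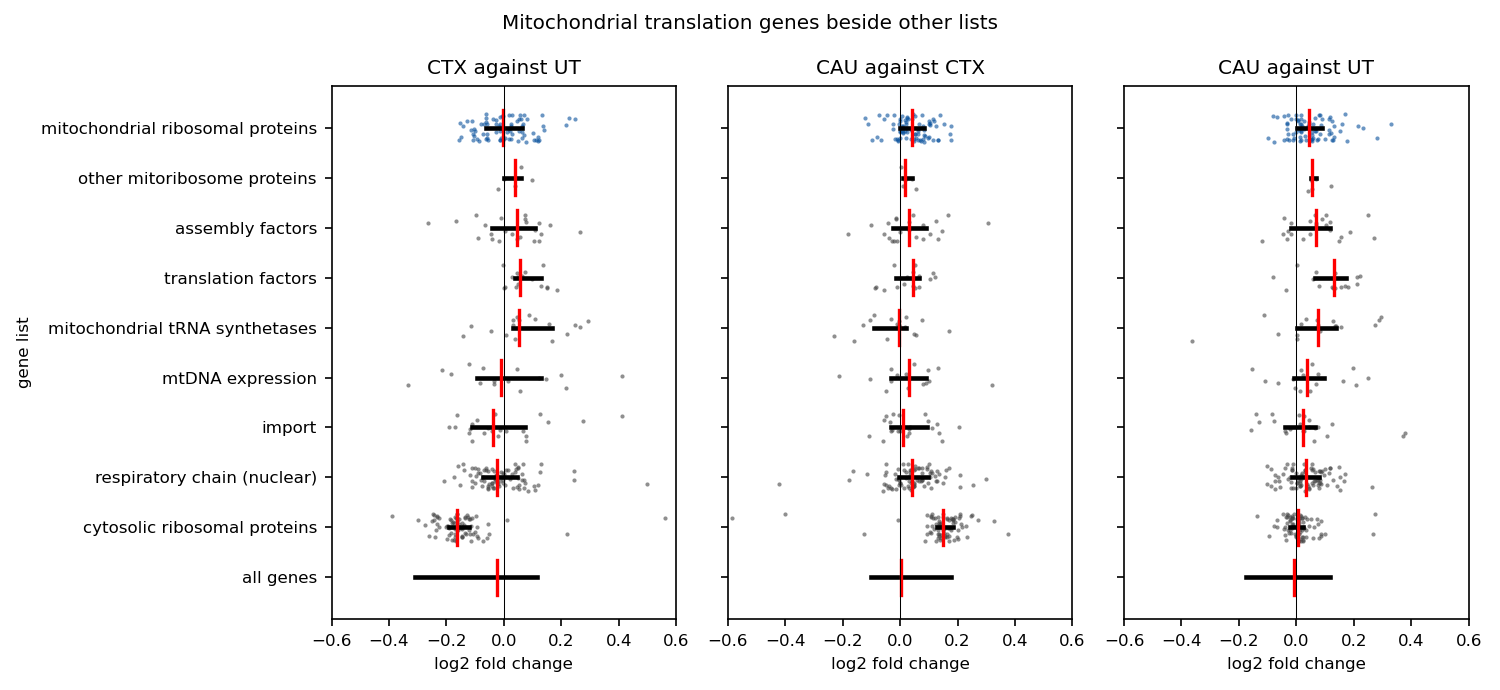
Log2 fold changes of mitochondrial ribosomal protein genes, related lists and all genes in the 3 comparisons; points are genes, red lines medians, black bars the interquartile range, and points beyond the axis are not drawn. The mitochondrial ribosomal protein genes centre on -0.0038, 0.04 and 0.04, and the cytosolic ribosomal protein genes on -0.16, 0.15 and 0.0073.

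The ribosome of the cytosol gave other values from the same libraries. Of 80 cytosolic ribosomal protein genes, 16 fell in CTX against UT, where 0.82% of all genes were called lower, and 76 of the 80 were negative with a median of -0.16. By the authors' deposited table the 3 with the smallest adjusted p were Rps12 at -0.30 (SE 0.07, adjusted p = 0.00272), Rpl35a at -0.23 (SE 0.05, adjusted p = 0.00589) and Rpl31 at -0.20 (SE 0.05, adjusted p = 0.00613). Between CAU and CTX, 75 of the 80 were positive with a median of 0.15, and 0 passed, with 20 at an unadjusted p under 0.05 by DESeq2 in the authors' deposited table. Over all genes, 52.3% were positive there, with 0.442% called and 5.36% at an unadjusted p under 0.05. Between CAU and UT the median was 0.0073 and 0 passed, with 0 at an unadjusted p under 0.05. The shares over all genes were 0.0518% called and 3.46% at an unadjusted p under 0.05. CTX against UT and CAU against CTX share the CTX libraries, so the opposite signs of these medians are not separate observations. Once all genes were centred on a median of 0, the count of 16 became 7, with none of the mitochondrial genes called under either setting.

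A shift of the cytosolic size would have been hard to see in a single mitochondrial gene. The members had a median SE of 0.12 in CTX against UT, beside 0.07 for the cytosolic genes, and 0 of 78 members were precise enough to be called at the cytosolic median of -0.16. In CTX against UT the intervals of 63 of 78 members held that median and the intervals of the other 15 lay above it. The intervals of 72 members in CAU against CTX held the cytosolic median of 0.15 and those of 6 lay below it. The difference between the lists as such was not tested. Of the 83 nuclear genes of the respiratory chain and ATP synthase (82 with values in CAU against UT), whose products are assembled with those the mitochondrial ribosome makes, 0 passed in any comparison, and their medians were -0.02 in CTX against UT, 0.04 in CAU against CTX and 0.03 in CAU against UT. Cox4i1, a cytochrome c oxidase subunit gene and the precisest of them, was at -0.14 (SE 0.06) in CTX against UT. Its adjusted p there was 0.277 by DESeq2 in the authors' deposited table. Over all genes 1.29%, 0.442% and 0.0518% were called in these comparisons, so the counts of 0 for this list lie near the background.

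Macrophage, granulosa cell, dividing cell and surface epithelium markers had medians much further from 0 than the members in CTX against UT. In CTX against UT, where 0.472% of all genes were called higher and 0.82% lower, the 10 macrophage markers ranged from -1.42 to -0.23 with 6 called lower, the 10 granulosa cell markers from 0.14 to 1.20 with 3 called higher, and the 8 markers of dividing cells from 0.35 to 0.62 with 3 called higher. The 8 surface epithelium markers had a median of -1.17 with a median SE of 0.50, and 1 was called lower. The 8 adipocyte markers had a median of -1.17 with 0 called, and their median SE of 0.82 makes these values imprecise. The 10 oocyte markers had a median of 0.10 with a median SE of 0.16 and 0 called. Between CAU and CTX, where 0.312% of all genes were called higher and 0.13% lower, 2 macrophage markers were called higher and 1 granulosa cell marker lower. None of these markers was called in CAU against UT, where 0.0518% of all genes were called. CTX against UT and CAU against CTX share the CTX libraries, so opposite signs there are not separate observations. In bulk tissue fewer cells of a type and less RNA per cell cannot be told apart, and whether the makeup of the tissue bears on the mitochondrial ribosomal protein values was not tested.

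In the genome the 78 genes are scattered over 17 chromosomes (GENCODE M21, build GRCm38), with at most 11 on any one, chromosome 11. Many start back to back with a neighbour. For 23 of them (29.5%) the start lay within 1000 bases of the start of a protein-coding gene that runs the other way (allowing an overlap of up to 200 bases), beside 8.92% of the protein-coding genes of the deposited table. Of the 23 partner genes, 1 was called in CTX against UT, 0 in CAU against CTX and 0 in CAU against UT, where 1.29%, 0.442% and 0.0518% of all genes were called, so these counts lie near the background. Overlap with another protein-coding gene on either strand affected 26 members (33.3%, beside 22.4% of all), and where the counting did not use strand such reads cannot be told apart. The annotation also names 5 processed pseudogenes after members, namely Mrpl23, Mrpl48 and Mrps36, so these 3 values may hold shared reads. Pseudogenes under other names were not searched for, so other members may share reads too.

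The called partner was Fau, which encodes a cytosolic ribosomal protein fused to a ubiquitin-like protein and starts 59 bases from Mrpl49 in the GENCODE annotation. The pair was picked after the values were seen. For CTX against UT the authors' deposited table has Mrpl49, of the large subunit, at -0.0042 (SE 0.13, interval -0.25 to 0.25, adjusted p = 0.999) and Fau at -0.26 (SE 0.07, adjusted p = 0.0342). After the same centring, Mrpl49 stood at 0.02, and Fau had an adjusted p of 0.0734 and was no longer called. In CAU against CTX the authors' deposited table has Mrpl49 at 0.05 (SE 0.09) and Fau at 0.24 (SE 0.12), and in CAU against UT at 0.05 (SE 0.14) and -0.01 (SE 0.14). The difference within the pair was not tested, and CTX against UT and CAU against CTX share the CTX libraries. Mrps12 shares its start region in the same way with Sars2, the mitochondrial serine tRNA synthetase gene, which the authors' deposited table has at 0.05 (SE 0.19) in CTX against UT, 0.02 (SE 0.14) in CAU against CTX and 0.08 (SE 0.21) in CAU against UT.

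Sequence around the start was searched in RefSeq promoters of build GRCm38.p6, each 300 bases long with 250 before and 50 after a start. The table held 75 promoters of 69 members and 19164 promoters of the genes in the deposited table. Mrpl4, Mrpl13, Mrpl15, Mrpl19, Mrpl38, Mrpl54, Mrps28, Mrps34 and Mrps35 are not among the 69. On both strands, 4 motifs were looked for. The motif of NRF1, a known activator of mitochondrial genes (GCGCA, then any base, then GCGC), was in 13 of the 75 (17.3%), beside 7.08% of all. CCGGAAG, the core of ETS factors such as GABPA, was in 26 (34.7%), beside 12.7% of all. ANATGGCGG, of YY1, was in 7 (9.33%), beside 2.74% of all, but with the 250 bases before the start alone it was in 1.33%, beside 1.11%, a window chosen after seeing the data. The ETS share in that shorter window was 24.0%, beside 9.91% of all. The E-box CACGTG was in 7 of the 75 (9.33%), beside 8.50% of all. These shares count promoters and not genes, and the E-box matches include several overlapping windows of Mrpl2. Among promoters with at least 60% G and C, the ETS motif was in 41.2% of those of members and 17.3% of all, and the NRF1 motif in 17.6% and 11.5%. A match describes the letters only.

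**Figure D4:**
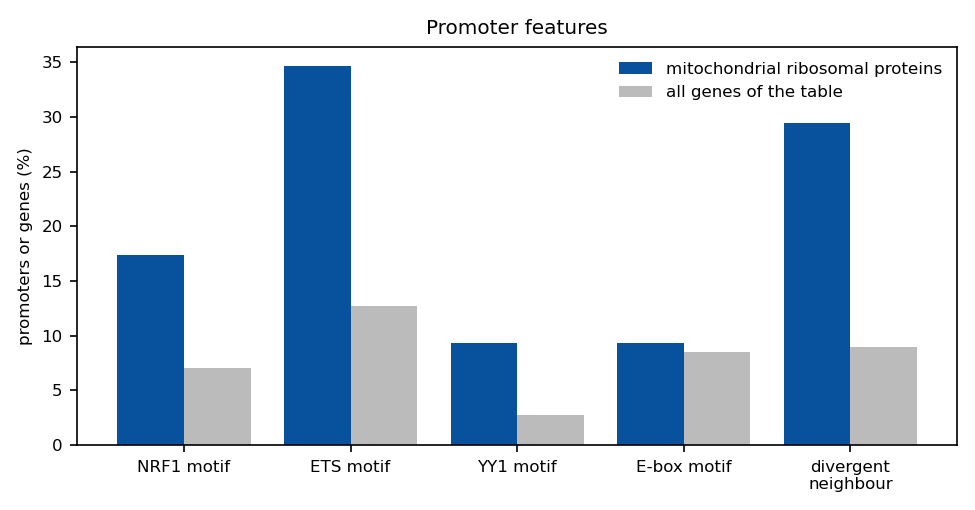
Share of promoters with each of 4 motifs, and share of genes with a back-to-back neighbour, for mitochondrial ribosomal protein genes and for all genes of the deposited table. The bars for the ETS motif stand at 34.7% and 12.7%, and those for a divergent neighbour at 29.5% and 8.92%.

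The following 4 stretches show the bases just before the start of 2 members that share their start region with a neighbour and 2 members with a motif match in the stretch. Each is written in the direction of the member gene, leaves out bases inside any annotated protein-coding gene, and has motif matches in capitals. Between Mrpl49 and Fau lie the bases chr19:6057786-6057843, between Mrps12 and Sars2 chr7:28741822-28741956, and before Mrps22 and Mrps21 chr9:98601680-98601829 and chr3:95871520-95871664, all on the minus strand of GRCm38.p6.
Mrpl49: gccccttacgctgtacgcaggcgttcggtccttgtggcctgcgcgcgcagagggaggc
Mrps12: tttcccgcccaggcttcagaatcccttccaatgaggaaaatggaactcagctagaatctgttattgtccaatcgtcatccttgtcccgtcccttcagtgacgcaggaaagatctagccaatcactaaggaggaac
Mrps22: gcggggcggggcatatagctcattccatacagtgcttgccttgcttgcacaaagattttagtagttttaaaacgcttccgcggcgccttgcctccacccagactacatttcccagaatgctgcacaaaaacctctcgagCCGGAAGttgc
Mrps21: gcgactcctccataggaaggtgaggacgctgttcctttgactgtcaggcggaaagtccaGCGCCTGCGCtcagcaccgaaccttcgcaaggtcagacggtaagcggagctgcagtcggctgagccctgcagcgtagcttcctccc
The ETS match of Mrps22 begins 11 bases before its start and the NRF1 match of Mrps21, which reads on the opposite strand, begins 91 bases before the start of that gene. The printed stretches of Mrpl49 and Mrps12 hold none of the 4 motifs, but the full window of Mrps12 has an ETS match outside its stretch, and Mrps12 is 1 of the 26 members with one.

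The log2 fold changes of members with and without these features are given as medians. In CTX against UT, the 26 members with an ETS match had a median log2 fold change of -0.0048 and the 43 without one 0.0026. For CAU against CTX these medians were 0.02 and 0.04, and for CAU against UT 0.03 and 0.04. The 13 members with an NRF1 match had medians of -0.01, 0.03 and 0.06, and the 56 without one 0.0041, 0.04 and 0.04. The 23 with a divergent neighbour had -0.0013, 0.05 and 0.05, and the other 55 had -0.0072, 0.04 and 0.04. These differences between medians were not tested.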

How the data were processed

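RNA-seq libraries of mouse ovarian tissue (9 libraries, 3 groups of 3, taken from the sample titles) were made with a SMARTER mRNA kit, per the labels' protocols. HISAT2, Bowtie2, RSEM 1.3.1, DESeq2 1.44.0 and GRCm38.p6 are named in the submitters' processing notes without roles; no source used here gives filters, covariates or the strand setting. The log2 fold change between groups was computed by the authors, and the p-value and q-value (called adjusted p) are those the authors deposited from DESeq2. Blank genes (215 to 272 per comparison) were left out.

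The deposited adjusted p, over all genes, was the test. It lay within 7.74e-05 of a Benjamini-Hochberg adjustment of the p-values. To get an SE, the size of the log2 fold change was divided by that of the normal z matching its 2-sided p-value. This takes the test to be a Wald test with no shrinkage of the fold changes. Depth is unknown here, so no interval based on counts is given. The 3 comparisons added up within 0.01 of a constant in 18772 of 18773 genes, so all columns follow 1 direction.

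The members and lists were chosen with earlier results of these data known. Named were the 3 highest and 3 lowest members with an SE at or under the members' median, the least precise member, 10 fixed members and, from each related list, up to 3 called genes or else the gene with the smallest SE (given here for CTX against UT). Genes outside this rule are said to be picked after their values were seen, except Cdkn1a, Twnk, Mrps36 and Sars2, which also lie outside it. Alternatives were thresholds of 0.10 and 0.01, centring, z scaled to a spread of 1, an SE limit of 0.5 and further ribosome proteins. The arithmetic was checked on values simulated with normal errors, which cannot test whether the deposited p-values follow that model. Python 3.11.15, pandas 2.3.3 and scipy 1.17.1 were used.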

Additional observations from a re-analysis of the deposited data

How the results depend on the processing

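The count of called mitochondrial ribosomal protein genes was 0 in each of the 3 comparisons at thresholds of 0.10 and 0.01, after centring all genes on a median of 0, with z scaled to a spread of 1, with genes of an SE of at most 0.5 alone, and with the other mitoribosome proteins added. With z scaled, where 237, 237 and 255 of all genes were called in CTX against UT, CAU against CTX and CAU against UT, the smallest adjusted p of a member was 0.439, 0.600 and 0.322. The centring moved the members' median in CTX against UT across 0, to 0.02. This centring turned Mrpl49 in CTX against UT to 0.0209, took Fau to adjusted p = 0.0734 and cut the cytosolic ribosomal calls to 7. Searching the 250 bases before the start alone, an alternative chosen after seeing the data, gave the ETS motif in 24.0% and the YY1 motif in 1.33% of member promoters, beside 9.91% and 1.11% of all. No paired analysis was possible because the deposited table holds no value per library, and leaving out single replicates was not run for the same reason. Precision is limited by the implied SE. At the largest p called, a member of median precision needed 1.34-fold in CTX against UT and in CAU against CTX. In CAU against UT such a member needed 1.54-fold. These limits would move with the number of genes called.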
